A study of Mus musculus with 42 samples.

Results

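Cholesterol synthesis and sterol regulation were followed through 33 genes in mouse lung, chosen by gene symbol from 54532 genes in the deposited expression table. No measured value entered the rule, but earlier results of these data were known when the genes were chosen. The 33 genes comprise 8 enzymes of the mevalonate steps, 11 enzymes of the sterol steps, 5 genes of the SREBP control system, 5 genes of the liver X receptor (LXR) axis and 4 genes of sterol transport and storage. Bulk RNA sequencing covered 42 lung libraries in 14 groups of 3, from 2 housing conditions at 7 collection times. All mice were wild-type C57BL/6J with free access to food and water, under lights on at clock hour 8 (ZT0) and off at clock hour 20 (ZT12). The control condition (Ctrl) was the home cage, and the SD condition, which the series title ties to sleep deficiency, was the SD cage. Either housing was applied from clock hour 14 to clock hour 10, 20 h a day for 2 days, and lungs were then taken every 4 h from ZT0 to ZT24. Since the housing hours end between ZT0 and ZT4, they leave unsettled whether the ZT0 lungs came from mice still in a housing period. Libraries of a group are labelled as biological replicates, with no word on whether each is 1 animal or a pool, and the age and sex of the mice were not given in the sources used here. Below, SD always names the cage condition, and errors are standard errors (SE) or are written out as standard deviations.

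Cells build cholesterol from acetyl-CoA through mevalonate, the isoprenoid diphosphates, squalene and lanosterol. SREBP transcription factors, held in the endoplasmic reticulum by Scap and the Insig proteins when sterols are plentiful, switch on the genes of this route when sterols run low. LXR receptors sense oxidised sterols and switch on genes of cholesterol export, and in the lung both type 2 alveolar cells, which secrete lipid-rich surfactant, and alveolar macrophages, which clear it, depend on sterol handling.

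Levels are the authors' FPKM values, which are comparable between genes because they are per length. Differences are on the log2(FPKM + 1) scale, SD minus Ctrl, from a limma fit over the 16962 genes with a mean of at least 0.5 FPKM, and calls required an adjusted p under 0.05 (Benjamini-Hochberg). All 33 genes entered the fit. Folds are these differences taken off the log scale, so they are ratios of FPKM + 1 and not of FPKM. The libraries held 25285525 to 29790252 reads assigned to genes, recovered from the FPKM values. Lung markers (Sftpc, Scgb1a1, Ager, Cldn5 and Foxj1) summed to group means of 45000 to 110000 FPKM in Ctrl and 87200 to 114000 FPKM in SD. Changes between conditions were widespread in these lungs, so each count below is given with the share of all tested genes called by the same rule. In bulk tissue, fewer cells of a type and less RNA per cell cannot be told apart.

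The region around the transcription start is where SREBP and its partner factors are known to act, so the RefSeq windows (GRCm38.p6, from 250 bases before to 50 bases after the start) are shown for 5 genes chosen to span the kinds of difference described below: an early and a late enzyme that were lower in SD (Hmgcs1, Cyp51), an SREBP feedback target (Insig1), the enzyme with the largest rise (Pmvk) and an LXR target (Abca1). Capitals mark letters matching CCAAT or its reverse complement ATTGG, the E-box CACGTG, and the sterol regulatory element letters TCACNCCAC.
Hmgcs1, chr13:119690101-119690400, plus strand: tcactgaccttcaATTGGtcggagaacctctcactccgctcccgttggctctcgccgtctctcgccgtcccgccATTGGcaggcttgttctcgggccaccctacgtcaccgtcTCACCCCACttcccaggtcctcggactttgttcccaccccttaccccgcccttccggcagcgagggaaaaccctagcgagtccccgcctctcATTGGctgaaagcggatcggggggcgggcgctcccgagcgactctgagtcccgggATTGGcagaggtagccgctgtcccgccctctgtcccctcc
Cyp51, chr5:4104648-4104947, minus strand: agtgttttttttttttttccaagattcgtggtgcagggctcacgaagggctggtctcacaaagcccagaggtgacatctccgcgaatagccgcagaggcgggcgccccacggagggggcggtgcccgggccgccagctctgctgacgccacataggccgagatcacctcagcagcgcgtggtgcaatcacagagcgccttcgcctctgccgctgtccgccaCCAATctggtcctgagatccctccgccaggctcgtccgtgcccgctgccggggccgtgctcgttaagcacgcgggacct
Insig1, chr5:28071162-28071461, plus strand: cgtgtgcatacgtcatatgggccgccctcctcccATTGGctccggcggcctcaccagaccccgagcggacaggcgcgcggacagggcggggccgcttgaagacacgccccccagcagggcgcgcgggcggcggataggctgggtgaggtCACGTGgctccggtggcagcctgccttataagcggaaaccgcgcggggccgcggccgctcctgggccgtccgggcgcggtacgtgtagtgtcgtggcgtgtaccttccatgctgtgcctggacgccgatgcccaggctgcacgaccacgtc
Pmvk, chr3:89454291-89454590, plus strand: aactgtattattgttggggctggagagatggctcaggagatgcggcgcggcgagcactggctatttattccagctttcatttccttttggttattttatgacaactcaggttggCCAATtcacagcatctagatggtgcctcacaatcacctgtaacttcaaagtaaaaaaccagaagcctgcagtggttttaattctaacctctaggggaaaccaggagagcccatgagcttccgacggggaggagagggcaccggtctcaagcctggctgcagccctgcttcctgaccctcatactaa
Abca1, chr4:53159846-53160145, minus strand: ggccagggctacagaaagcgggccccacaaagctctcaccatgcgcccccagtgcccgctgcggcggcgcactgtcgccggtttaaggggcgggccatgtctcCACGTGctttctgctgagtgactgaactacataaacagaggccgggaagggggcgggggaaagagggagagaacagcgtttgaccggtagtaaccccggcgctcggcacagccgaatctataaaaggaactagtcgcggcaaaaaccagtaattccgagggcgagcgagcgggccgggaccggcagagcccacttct
RefSeq windows were matched for 27 of the 33 genes, 16 of them among the 19 synthesis enzymes. Some genes have several starts, so a gene was counted when at least 1 of its windows held the letters, and the window nearest the start in the deposited table is the one printed. CCAAT, searched on both strands, was present for 15 of the 16 enzymes (93.8%) and for 22 of all 27 genes (81.5%), against 41.8% of the 11363 tested genes with a window and 37.4% of all 32817 windows. CACGTG was present for 6 of 27 genes (22.2%), against 11.1% of tested genes. TCACNCCAC, also searched on both strands, occurred for 1 gene, Hmgcs1, 137 bases before the start, against 1.41% of tested genes. The LXR direct repeat was found for 0 of 27 genes, and 0.0152% of all windows held it. These matches describe letters in a short window only. The printed window of Pmvk, whose level moved opposite to most enzymes, held CCAAT as well. The window of its other start, chr3:89459321-89459620, held 0 matches to CCAAT.

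Averaged over the 7 times, most sterol-step enzymes were lower in SD, the LXR axis was higher, and the remaining groups were split. Of the 33 genes, 30 were called, 12 higher and 18 lower, where 69.9% of all tested genes were called (34.6% higher and 35.3% lower). Of the 19 synthesis enzymes, 16 were called, 3 higher and 13 lower, with a median difference of -0.17 against a median of -0.00327 over all tested genes. All 5 LXR-axis genes were higher. When the 14 group means rather than the libraries were the units, so that the scatter of the 7 time-matched differences set the error, 13 of 33 were called, 6 higher and 7 lower, against 16.9% of all genes (9.16% higher and 7.79% lower). With scaling by total reads, 28 were called, 10 higher and 18 lower, against 71.5% of all genes (24.2% higher and 47.3% lower). The 13 called on group means were Pmvk, Ggps1, Nr1h2, Abca1, Mylip and Npc2 on the higher side and Mvd, Sqle, Cyp51, Msmo1, Dhcr7, Stard4 and Soat1 on the lower side.

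**Figure D1:**
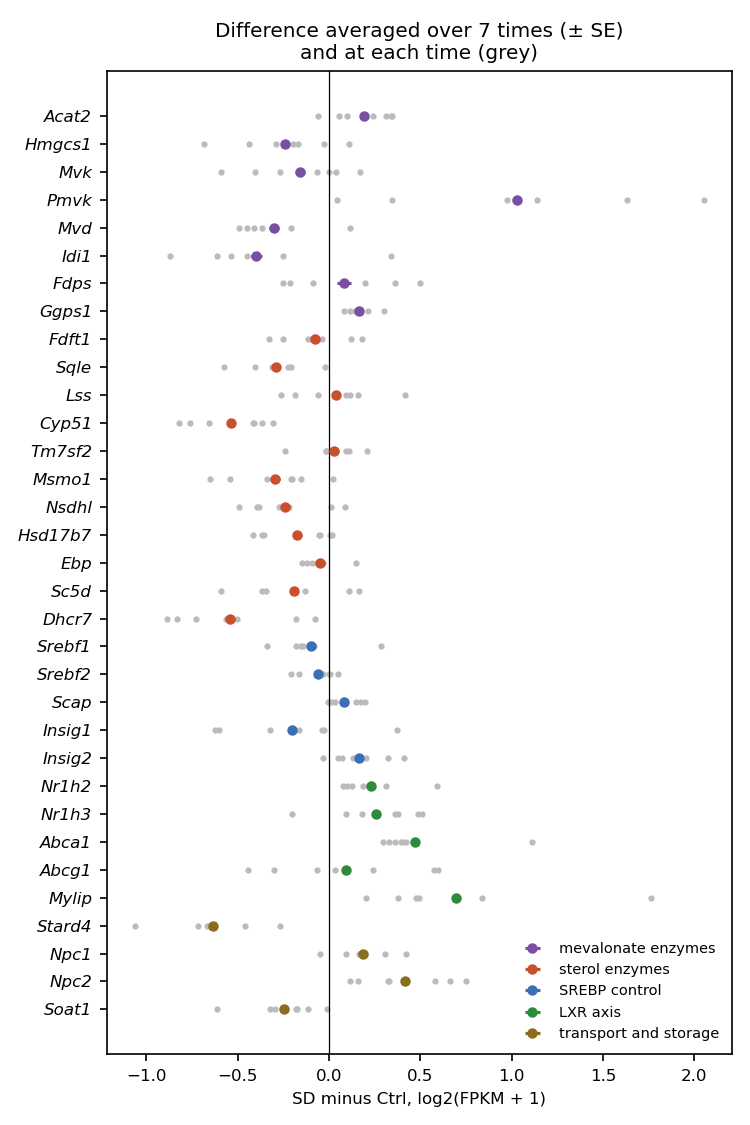
Averaged difference between SD and Ctrl on the log2(FPKM + 1) scale (horizontal axis) for the 33 genes (vertical axis), coloured by role, with bars of 1 SE from the fit and grey points for the 7 single times. Pmvk lies farthest to the right at 1.03 and Stard4 farthest to the left at -0.64, and the grey points of most genes spread far beyond the SE of the average.

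Among the mevalonate enzymes, Pmvk stood opposite to most of its neighbours. Pmvk, which adds the second phosphate to mevalonate (3:89454541-89469013, plus strand, mm10), ranged from 14.7 to 29 FPKM (median 21.5) over the 21 Ctrl libraries and from 26.2 to 85.9 FPKM (median 38.8) over the 21 SD libraries. At ZT20 the 3 SD libraries read 80.7, 80.7 and 85.9 FPKM and the 3 Ctrl libraries 25.4, 26.6 and 25.7 FPKM, and at ZT8 they read 66.2, 63.6 and 66.7 FPKM against 14.7, 14.7 and 15.7 FPKM. The groups were far apart at both times, whereas at ZT12 the values overlapped, with 26.2, 27.1 and 27 FPKM in SD and 26.9, 24.4 and 26.7 FPKM in Ctrl. Averaged over times Pmvk was 2.04-fold higher (1.03 ± 0.02 log2, adjusted p = 4.08e-28, and 0.0201 on group means), and the difference ran from 0.04 at ZT12 to 2.05 at ZT8.

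The enzymes on either side of Pmvk in the route moved less or the other way. Idi1, the isopentenyl diphosphate isomerase, had the largest averaged fall of the mevalonate enzymes, by 0.40 ± 0.03 (adjusted p on group means 0.0605). Its 3 SD libraries at ZT20 read 4.22, 4.02 and 3.27 FPKM against 7.19, 8.88 and 7.4 FPKM in Ctrl, but at ZT16 they read 8.03, 8.3 and 8.31 FPKM against 5.92, 6.91 and 6.06 FPKM. Idi1 thus lay below every Ctrl library at ZT20 and above every one at ZT16. Hmgcs1, which forms HMG-CoA, fell by 0.24 ± 0.02 (0.0966 on group means), Mvd, the decarboxylase that yields isopentenyl diphosphate, fell by 0.30 ± 0.03 (0.031), and mevalonate kinase, Mvk, fell by 0.16 ± 0.03 (0.256). Acat2, the thiolase that makes acetoacetyl-CoA, was higher by 0.19 ± 0.02 (0.0688), with 10.4 to 15.1 FPKM (median 12.4) in Ctrl and 12.8 to 17.5 FPKM (median 14.4) in SD. Ggps1, which makes the geranylgeranyl diphosphate used for protein prenylation, was higher by 0.17 ± 0.02 (0.0369) with 7.61 to 9.25 FPKM in Ctrl and 8.88 to 10.8 FPKM in SD. Fdps, the farnesyl diphosphate synthase, missed the threshold (0.08 ± 0.04, adjusted p = 0.0527). Its level is uncertain: only 55 to 200 reads per library fell on it, and a processed copy, Gm3571, with 98.9% identity over 1062 bases, was listed at a mean of 5.27 FPKM against 1.04 FPKM for Fdps. Transcripts with near-identical stretches also exist for Acat2, from Acat3 (97.7% identity, 0.282 FPKM) and over 445 bases from Tcp1 (98.7%), which at 21.1 FPKM was above Acat2 itself, and for Idi1 (Gm13502, 100%, 0.363 FPKM).

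**Figure D2:**
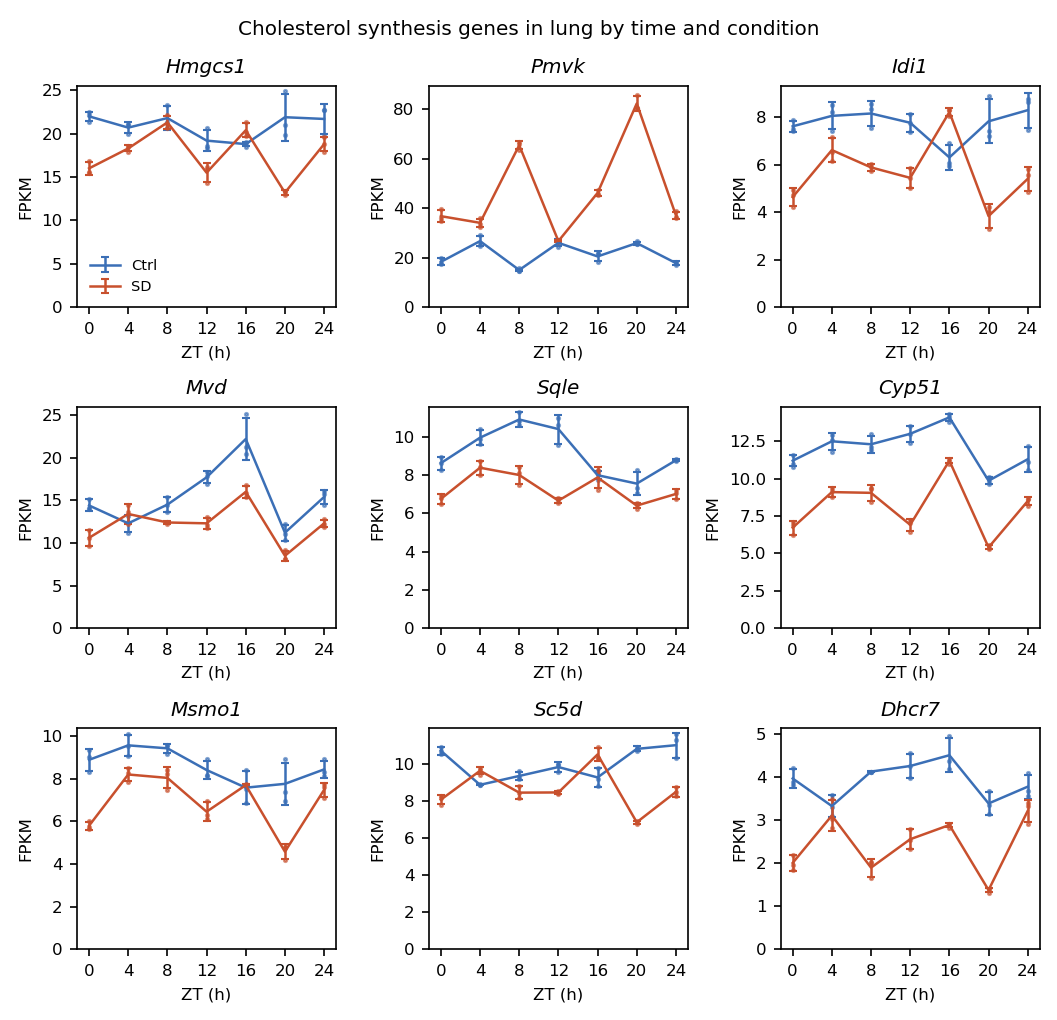
FPKM (vertical axes, from 0) against collection time in h (horizontal axes) for 9 synthesis enzymes, with points for libraries and lines and bars for the mean and standard deviation of the 3 libraries of each group, Ctrl in blue and SD in red. Pmvk peaks in SD at ZT8 and ZT20, while Idi1, Cyp51, Msmo1, Sc5d and Dhcr7 dip in SD at ZT20.

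Of the 11 sterol-step enzymes, 0 were called higher on average and 9 lower (34.6% and 35.3% of all genes), with a median difference of -0.19. On group means, 0 were called higher and 4 lower (9.16% and 7.79% of all genes). Cyp51, the lanosterol demethylase (5:4081145-4104746, minus strand), ranged from 9.65 to 14.3 FPKM (median 12.1) in Ctrl and from 5.27 to 11.3 FPKM (median 8.42) in SD. At ZT20 the SD libraries read 5.55, 5.39 and 5.27 FPKM against 10.1, 9.82 and 9.65 FPKM, and at ZT12 they read 6.44, 7.24 and 7.05 FPKM against 12.4, 13.5 and 13 FPKM. The 3 SD values lay below the 3 Ctrl values at each of these times. Cyp51 fell by 0.54 ± 0.02 (adjusted p = 1.48e-22, and 0.00665 on group means) and was lower at 7 of 7 times. Dhcr7, the reductase of the last step of the Kandutsch-Russell branch (7:143823145-143848410, plus strand), ranged from 3.1 to 4.95 FPKM (median 3.97) in Ctrl and from 1.31 to 3.49 FPKM (median 2.53) in SD. At ZT20 it read 1.4, 1.31 and 1.4 FPKM in SD against 3.67, 3.13 and 3.34 FPKM in Ctrl, without overlap, whereas at ZT4 the values interleaved (3.02, 3.49 and 2.8 FPKM against 3.58, 3.29 and 3.1 FPKM). Dhcr7 fell by 0.54 ± 0.03 on average (adjusted p = 9.49e-19, and 0.0165 on group means), a value that the added 1 FPKM shrinks for a gene at this level.

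Sqle, the squalene epoxidase that controls entry into the sterol steps, fell by 0.29 ± 0.02. Its values overlapped between conditions at ZT16 (7.22, 8.27 and 8.12 FPKM in SD against 8.01, 8.19 and 7.75 FPKM in Ctrl). They were apart at ZT12, with 6.53 to 6.8 FPKM in SD against 9.55 to 11 FPKM in Ctrl. Msmo1, the methylsterol monooxygenase, fell by 0.30, Nsdhl and Hsd17b7, which complete the removal of its methyl groups, fell by 0.24 and 0.17, and the desaturase Sc5d fell by 0.19. Smaller falls were called for the squalene synthase Fdft1 (by 0.07) and the sterol isomerase Ebp (by 0.05). The lanosterol synthase Lss (0.04, adjusted p = 0.0717) and the sterol reductase Tm7sf2 (0.03, adjusted p = 0.411) were not called, and the sign of both turned with scaling by total reads (-0.02 and -0.03). Fdft1 shares 18.311% of its exon bases with Ctsb on the opposite strand, and how the counting treated strand was not given in the sources used here. On the same strand, Tm7sf2 shares 12.083% of its exon bases with Vps51, and Fdps 26.711% with Gm43738, so reads there could be split. By the sign of the group means alone, called or not, 5 of the 33 genes lay below Ctrl at 7 of 7 times (Sqle, Cyp51, Dhcr7, Stard4 and Soat1, against 7.6% of all genes) and 6 lay above it at 7 of 7 (Pmvk, Ggps1, Nr1h2, Abca1, Mylip and Npc2, against 9.19%). Some of these single differences were not called, among them Sqle and Soat1 at ZT16, Dhcr7 at ZT4 and Pmvk at ZT12. These signs are from the deposited scaling. With scaling by total reads, Ggps1 at ZT20 (-0.0776) and Pmvk at ZT12 (-0.00428) turned negative, neither called.

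The size of the difference depended on the time of collection for most of the genes. The 6 interaction terms were called for 32 of 33 genes, all but Ggps1 (adjusted p = 0.105), where 81.7% of all genes were called. Of the 19 synthesis enzymes, 3 were higher and 12 lower at ZT0 (median -0.37), 3 higher and 6 lower at ZT4, 4 and 10 at ZT8, 1 and 11 at ZT12 (median -0.20), 9 and 3 at ZT16 (median 0.15), 3 and 12 at ZT20 (median -0.37) and 3 and 11 at ZT24 (median -0.18). ZT16 was thus the 1 time at which more enzymes were higher than lower in SD. Of all 33 genes, 8 were higher and 16 lower at ZT0, where 37.7% of all genes were called (18% higher and 19.7% lower), and 11 were higher and 9 lower at ZT4 (39.2%, with 19.2% and 20.1%). At ZT8, 11 were higher and 14 lower (56%, with 27.1% and 28.9%), and at ZT12, 8 and 14 (48.9%, with 24.4% and 24.4%). At ZT16, 19 were higher and 5 lower (56.1%, with 29.1% and 27.1%), a split opposite to that at ZT20, where 10 were higher and 18 lower (61.4%, with 33% and 28.4%). At ZT24, 8 were higher and 15 lower (46.8%, with 24.4% and 22.3%). At ZT20 the SD and Ctrl values of 31 of the 33 genes did not overlap (62.9% of all genes). Of those 31, 20 were lower in SD (29.2% of all genes) and 11 higher (33.7%).

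**Figure D3:**
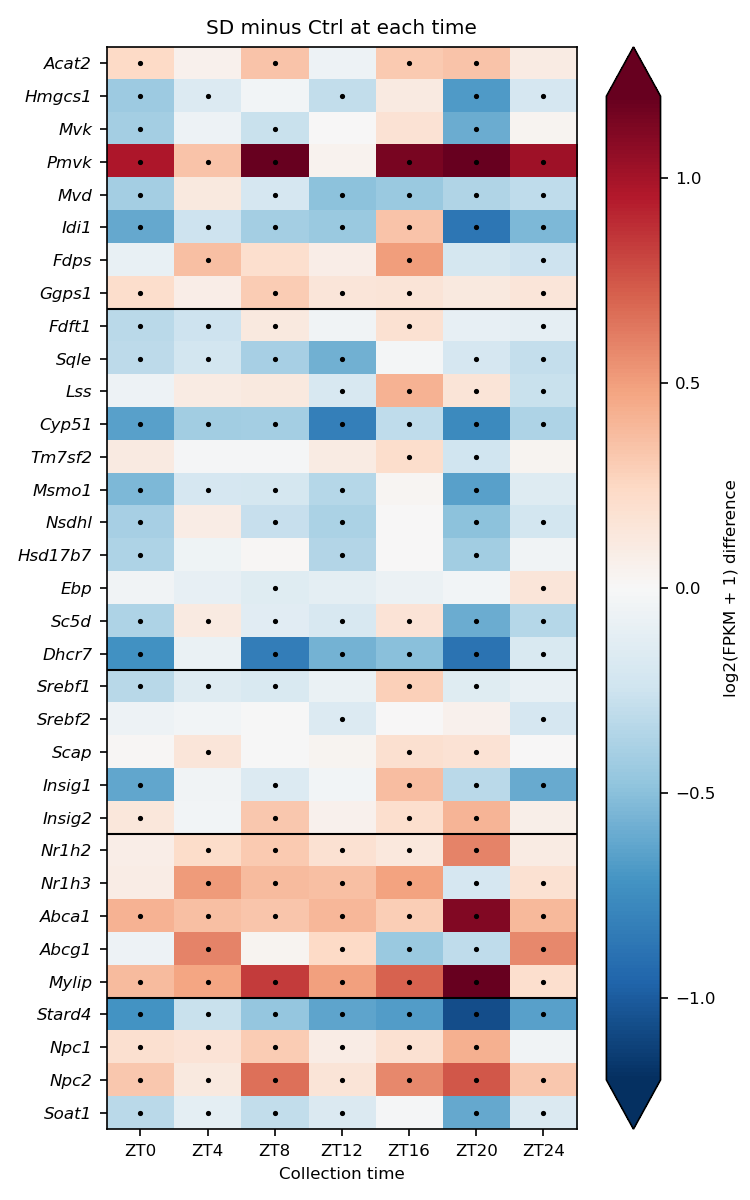
Difference between SD and Ctrl on the log2(FPKM + 1) scale at each collection time (horizontal axis) for the 33 genes in order of role (vertical axis), red for higher and blue for lower in SD, with a dot where the limma adjusted p was under 0.05 and colours limited to 1.2 in either direction. The sterol block is mostly blue at ZT0, ZT12 and ZT20 and mixed at ZT16, where Cyp51 and Dhcr7 are blue and others pale or red, and the rows of Abca1 and Mylip are red at every time and that of Pmvk at every time but ZT12, where it is near white.

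Within SD most of the enzymes rose or fell in the same direction at several steps from one time to the next, a description added after the values were seen. From ZT12 to ZT16, 15 of the 19 enzymes rose and 0 fell in the sense that the 3 values of one time did not overlap the 3 of the other (24.5% and 22.4% of all genes), with a median step of 0.23. From ZT16 to ZT20, 1 rose and 17 fell (33.2% and 28.4%), with a median step of -0.53, and from ZT20 to ZT24, 14 rose and 2 fell (30.6% and 33.1%), with a median step of 0.28. The SD ZT20 group had the lowest mean of all 14 groups for 13 of the 19 enzymes. The share of all tested genes with their lowest mean in that group is not given here, so how unusual this number is stays unknown. From ZT0 to ZT4, 14 rose and 0 fell (19.5% and 17%), and from ZT8 to ZT12, 3 rose and 10 fell (24.9% and 25.6%). From ZT4 to ZT8, 5 rose and 5 fell (24.8% and 25.2%), with a median step of -0.00775. In Ctrl the median steps lay between -0.11 and 0.09, with 2 to 7 of the 19 enzymes rising (17.2% to 26.8% of all genes) and 1 to 7 falling (17.2% to 26.4%) at a step. Relative to each gene's mean over the 14 groups, the median enzyme stood at -0.24 in SD ZT0, 0.15 in SD ZT16 and -0.30 in SD ZT20, against -0.02 to 0.12 in the Ctrl groups.

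**Figure D4:**
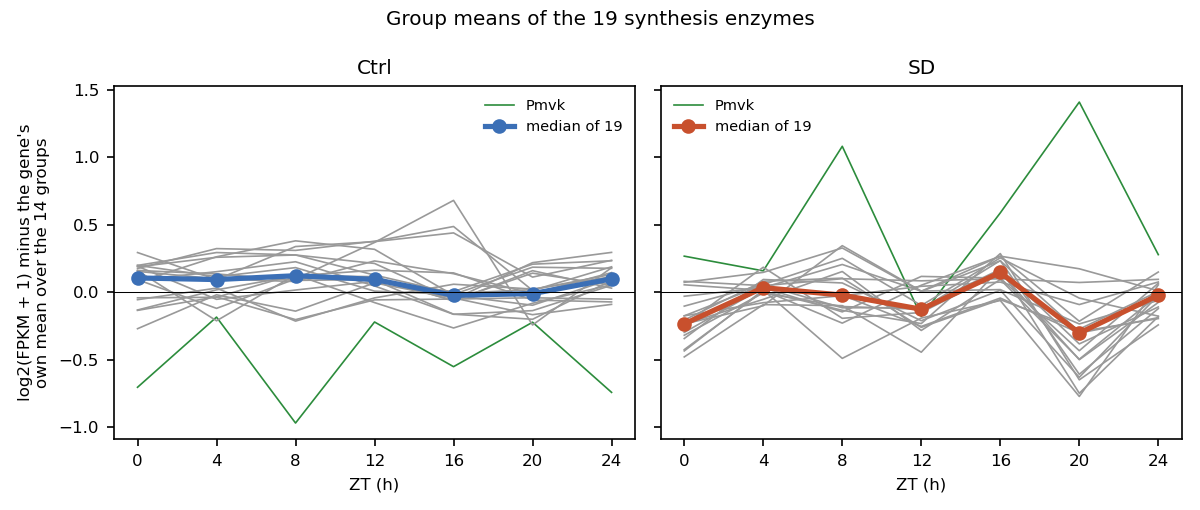
Level of each of the 19 synthesis enzymes relative to its own mean over the 14 groups, on the log2(FPKM + 1) scale (vertical axis), against collection time in h (horizontal axis), in Ctrl and SD, with Pmvk in green and the median in bold. The bold SD line drops to -0.30 at ZT20 after 0.15 at ZT16, while the bold Ctrl line stays between -0.02 and 0.12, and the green line runs apart from the rest in SD.

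The SREBP control genes changed by small amounts and in different directions. All 5 were called on average, 2 higher and 3 lower (34.6% and 35.3% of all genes), and none of them on group means (16.9% of all genes). Insig1, the anchor protein that is itself an SREBP target (5:28071363-28078662, plus strand), ranged from 23.5 to 38.8 FPKM (median 29.8) in Ctrl and from 21 to 32.1 FPKM (median 26) in SD. At ZT0 the SD libraries read 26, 24 and 22.7 FPKM against 38.8, 38 and 36.8 FPKM in Ctrl, whereas at ZT16 they read 32.1, 30.7 and 30.4 FPKM against 24.2, 23.6 and 23.5 FPKM. The groups did not overlap at either time, and their order was opposite. Insig1 fell by 0.63 ± 0.05 at ZT0 (adjusted p = 3.84e-12) and was higher by 0.37 ± 0.05 at ZT16 (adjusted p = 7.9e-08), with an averaged fall of 0.20 ± 0.02.

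Insig2, the second anchor protein, was higher by 0.17 ± 0.02 on average, with 19.9, 19.7 and 18.5 FPKM in SD at ZT20 against 14.6, 14.5 and 13.8 FPKM in Ctrl, and its values overlapped between conditions at ZT4. Scap, the escort that carries SREBP out of the endoplasmic reticulum, was higher by 0.08 on average (8.17 to 10 FPKM in Ctrl and 8.76 to 11.4 FPKM in SD), and this call was lost with scaling by total reads. Srebf1, which encodes the SREBP tied mainly to fatty acid synthesis, fell by 0.10 on average. It was lower at ZT0 by 0.34 (adjusted p = 9.06e-08) and higher at ZT16 by 0.28 (adjusted p = 7.9e-07). Srebf2, whose product is tied mainly to cholesterol synthesis, fell by 0.06 (adjusted p = 0.00102). Messenger levels do not measure the cleaved, active SREBP proteins.

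All 5 LXR-axis genes were higher in SD on average (34.6% of all genes), but Abcg1 was lower at ZT16 and both Abcg1 and Nr1h3 at ZT20. Mylip, the ubiquitin ligase that marks the LDL receptor for breakdown (13:45389742-45412022, plus strand), ranged from 9.79 to 16 FPKM (median 14.2) in Ctrl and from 13.2 to 56.2 FPKM (median 18.5) in SD. At ZT20 the SD libraries read 54.7, 55.2 and 56.2 FPKM against 15.9, 15.1 and 15.9 FPKM, and at ZT8 they read 28, 27.1 and 26.8 FPKM against 14.1, 15.4 and 15 FPKM. The SD values at ZT20 lay far above those of every other group. Mylip was 1.62-fold higher on average (0.69 ± 0.02, adjusted p = 7.64e-24, and 0.0282 on group means) and 3.38-fold higher at ZT20. Abca1, the exporter that loads cholesterol onto apolipoprotein A-I (4:53030787-53159895, minus strand), ranged from 5.2 to 8.74 FPKM (median 6.83) in Ctrl and from 6.82 to 16.3 FPKM (median 9.39) in SD. Its SD libraries read 16.3, 16.1 and 15.9 FPKM at ZT20 against 6.83, 7.33 and 6.7 FPKM, and the groups did not overlap. Abca1 was higher by 0.47 ± 0.02 on average (adjusted p = 5.98e-21, and 0.0176 on group means) and by 1.11 ± 0.05 at ZT20.

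Both receptors were higher on average, Nr1h2 (LXR beta) by 0.23 ± 0.02 and Nr1h3 (LXR alpha) by 0.26 ± 0.02 (adjusted p on group means 0.0767). Nr1h2 was highest in SD at ZT20 (55.9, 53.7 and 55.9 FPKM, against 38, 34.1 and 36.6 FPKM). Nr1h3 was lower at that time, with 17.2, 18.1 and 17.8 FPKM in SD against 21, 20.6 and 20.2 FPKM in Ctrl (-0.20 ± 0.05, adjusted p = 0.000546). The receptors thus stood on opposite sides of Ctrl at ZT20, without overlap. Abcg1, the exporter to high-density lipoprotein whose loss in mice fills the lung with lipid, was higher by 0.09 on average (adjusted p = 8.87e-06, and 0.656 on group means). The averaged call was lost with scaling by total reads, and Abcg1 was higher in SD at 4 of 7 times. It was higher by 0.60 ± 0.04 at ZT4 and by 0.58 ± 0.04 at ZT24, and lower by values of -0.44 ± 0.04 at ZT16 and -0.30 ± 0.04 at ZT20. At ZT16 the Ctrl libraries read 30.1, 32.9 and 32.8 FPKM, above all others, and the SD libraries 22.6, 24 and 23.1 FPKM. At that time 10 of 10 alveolar macrophage markers were lower in SD (median -0.74), and their summed level reached its highest group mean in Ctrl ZT16, 1290 FPKM. The part of these cells in the Abcg1 difference was not tested.

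**Figure D5:**
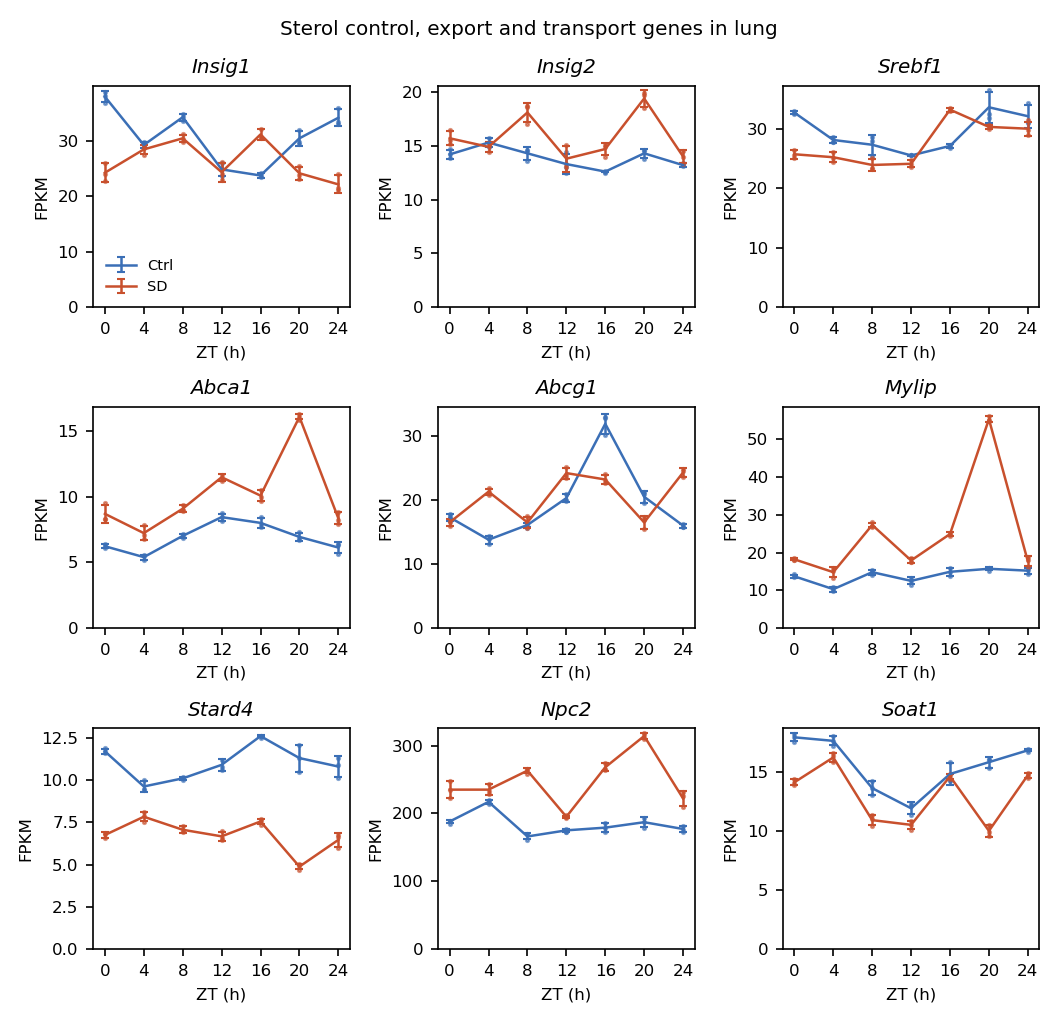
FPKM (vertical axes, from 0) against collection time in h (horizontal axes) for 9 genes of SREBP control, the LXR axis and sterol transport, with points for libraries and lines and bars for the mean and standard deviation of the 3 libraries of each group, Ctrl in blue and SD in red. Mylip and Abca1 stand out in SD at ZT20, Stard4 is lower in SD at every time, and Insig1 and Abcg1 cross between conditions.

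Of the 4 transport and storage genes, Stard4 and Soat1 were lower in SD and both lysosomal genes were higher. Stard4, a soluble carrier of sterol between membranes and a known SREBP target, read 9.41 to 12.6 FPKM (median 10.9) in Ctrl and 4.7 to 8.09 FPKM (median 6.87) in SD. All 21 SD libraries lay below all 21 Ctrl libraries, which held for 0.342% of all tested genes and, in either direction, for no other of the 33 (0.973% of all genes were higher without overlap). At ZT20 the SD libraries read 5.01, 4.7 and 4.94 FPKM against 10.5, 12.1 and 11.3 FPKM. Stard4 fell by 0.64 ± 0.02 on average (adjusted p = 2.54e-26, and 0.00603 on group means), and was 2.08-fold lower at ZT20. Soat1, which esterifies cholesterol for storage, fell by 0.24, and at ZT20 read 10.5, 9.86 and 9.59 FPKM in SD against 15.3, 16 and 16.1 FPKM in Ctrl, without overlap.

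Npc2, the soluble lysosomal carrier that hands cholesterol to Npc1 (12:84754562-84773152, minus strand), ranged from 161 to 220 FPKM (median 179) in Ctrl and from 193 to 318 FPKM (median 244) in SD. At ZT20 the SD libraries read 316, 318 and 310 FPKM against 193, 179 and 188 FPKM, without overlap. Npc2 was higher by 0.42 ± 0.01 on average (adjusted p = 3.75e-23, and 0.0229 on group means), and Npc1, the membrane transporter, by 0.19.

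Over the day, 23 of the 33 genes had a 24 h rhythm in Ctrl (57.6% of all genes) and 4 in SD (9.2%). The 4 in SD were Fdft1, Srebf1, Abca1 and Npc1. Called or not, the 33 genes had a median fitted amplitude of 0.118 log2 in Ctrl and 0.133 in SD. For the 19 enzymes it was 0.109 and 0.132. The smaller number called in SD thus did not come with a smaller median amplitude. Of the 23 in Ctrl, 12 were synthesis enzymes, 9 of them with a fitted peak before ZT12, and 11 were other members, 8 of them with a peak after ZT12, where 45.5% of all rhythmic genes peaked before ZT12. The fitted peaks of Acat2 (11.4 ± 1.46 h) and Ebp (11.6 ± 0.63 h) lay close to that boundary. Abcg1 had the widest Ctrl rhythm, an amplitude of 0.48 ± 0.04 log2 with its peak at 16.2 ± 0.33 h, and in SD its amplitude was 0.09 ± 0.07. Sqle peaked at 7.62 ± 0.35 h in Ctrl (amplitude 0.24) and Insig1 at 2.1 ± 0.71 h (amplitude 0.25), Nr1h3 at 20.7 h (0.26) and Npc1 at 21.1 h (0.27).

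The rhythm itself differed between conditions for 7 genes (30.3% of all genes): Insig1 (adjusted p = 0.000373), Stard4 (0.000714), Abcg1 (0.00211), Srebf1 (0.00344), Fdft1 (0.00418), Nr1h3 (0.0217) and Sc5d (0.03). For Srebf1 the fitted peak was at 22.5 ± 0.54 h in Ctrl and 18.9 ± 0.57 h in SD, and for Fdft1 at 5.82 ± 0.38 h and 9.35 ± 0.74 h. In the same fits without ZT24, a different rhythm was no longer called for Sc5d (adjusted p = 0.0718). It was then called for Hmgcs1 (0.047) and Mvk (0.0241). The genes called rhythmic in SD then also included Msmo1 (0.027) and Ebp (0.0105). Levels in SD still differed between times: 32 of 33 genes, all but Ggps1, were called for a difference among the 7 times in SD by a one-way moderated F (79.7% of all genes), against 28 in Ctrl (74.3%). With the group means as units, 1 of the 33 was called in Ctrl (2.27% of all genes), 0 in SD (0.0118%) and 0 for a different rhythm (0%).

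Lungs collected 24 h apart, at ZT0 and ZT24, were compared within each condition, and the difference between the conditions in this respect was not tested. In Ctrl, ZT24 minus ZT0 was called for 2 of 33 genes (12.9% of all genes, 6.94% higher and 5.97% lower), Acat2 (0.18) and Insig1 (-0.15), and for 0 of them without Ctrl ZT0 replicate 1 or Ctrl ZT24 replicate 2. In SD it was called for 15 (38.5%, with 20.4% higher and 18.2% lower), 11 higher and 4 lower at ZT24. The higher ones included Abcg1 (0.53), Dhcr7 (0.49), Mvk (0.36), Msmo1 (0.32) and Cyp51 (0.30), and the lower ones were Fdps (-0.27), Npc1 (-0.18), Insig2 (-0.16) and Insig1 (-0.13). Of the 19 enzymes, 9 were higher and 1 lower at ZT24 in SD.

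Other genes of the pathway were counted in the same averaged comparison, in which 34.6% of all genes were higher and 35.3% lower, and the genes named are those with the smallest p-value of their list in a direction. Of 14 further genes listed with isoprenoid and cholesterol synthesis, 3 were higher and 4 lower on average (median 0.00235). Fdx1, a mitochondrial ferredoxin and not itself an enzyme of that route, was higher (0.52). Of 18 tested SREBP targets of lipoprotein uptake and fatty acid synthesis, 5 were higher and 10 lower (median -0.07), with Lpin1 (0.70) and the desaturase Scd1 (-0.60). Of 11 genes of SREBP processing and degradation, 5 were higher and 2 lower, with Ufd1 (0.22) and Erlin2 (-0.26). Of 13 tested genes of LXR targets and oxysterol metabolism, 8 were higher and 3 lower (median 0.13), with Lpl, the lipoprotein lipase (1.56), and Arl4c (-0.27). On group means, 2 and 1 of the 14 genes of the synthesis list, 2 and 2 of the uptake and fatty acid genes, 1 and 1 of the processing genes and 4 and 1 of the LXR genes were called higher and lower (9.16% and 7.79% of all genes). Of 18 further sterol carrier and ester genes, 10 were higher and 3 lower (median 0.09), with Cav1, the caveolin of endothelial and type 1 alveolar cells (0.45), and Nucb1 (-0.15), and 5 higher and 0 lower on group means.

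Cell-type markers also moved, in the averaged comparison that called 34.6% of all genes higher and 35.3% lower. On average 8 of 10 type 2 alveolar markers were higher and 2 lower (median 0.17), with summed group means of 19100 to 25200 FPKM in Ctrl and 22700 to 27700 FPKM in SD. All 10 were higher at ZT16 (median 0.40), where 9 synthesis enzymes were higher and 3 lower. At ZT20, 5 were higher and 3 lower (median 0.13), where 3 enzymes were higher and 12 lower. At ZT8, 7 type 2 markers were higher and 1 lower (median 0.36), where 4 enzymes were higher and 10 lower. At ZT0, 6 markers were higher and 2 lower, against 3 and 12 enzymes, and at ZT24, 6 and 4 against 3 and 11. At ZT4 the markers stood at 3 and 3 and the enzymes at 3 and 6, and at ZT12 at 3 and 1 against 1 and 11. The shares of all genes called at each time are those given above. Alveolar macrophage markers were higher for 9 of 10 and lower for 1 on average, although 0 were higher and 6 lower at ZT12 and 10 lower at ZT16. Their sums were 386 to 1290 FPKM in Ctrl and 564 to 814 FPKM in SD. Neutrophil markers were higher for 7 and lower for 2 on average, with sums of 294 to 1100 and 602 to 1400 FPKM. At ZT24, however, 1 neutrophil marker was higher and 8 were lower. Markers of plasma cells (0 higher, 10 lower, 170 to 828 against 148 to 178 FPKM), B cells (0 and 10, 78 to 294 against 29.9 to 94 FPKM), proliferation (0 and 9, 12.9 to 78.7 against 9.64 to 14 FPKM), cardiac muscle (0 and 9, 72.1 to 305 against 37.5 to 258 FPKM) and adipocytes (2 and 6, 18 to 151 against 16.2 to 137 FPKM) were lower for most on average. At ZT0, however, 8 cardiac markers were higher and 0 lower, and 6 adipocyte markers were higher and 0 lower. On group means, 1 type 2 marker and 2 neutrophil markers were called higher, 10 B cell, 9 proliferation, 3 plasma cell and 1 cardiac marker lower, and 0 macrophage or adipocyte markers in either direction. Of all genes, 9.16% were called higher and 7.79% lower by that rule. Cidec stands in both the macrophage and the adipocyte list, Sftpc in both the type 2 and the lung list, and Abca3 in both the type 2 and the carrier list. No listed marker was at 0 in all 42 libraries. The part of these cells in the sterol-gene differences was not tested. Without ZT8, ZT12, ZT16 and ZT24, where Ctrl plasma-cell genes were high, 29 of the 33 genes were called, 12 higher and 17 lower (55.3% of all genes, 27.8% higher and 27.5% lower). Other markers still differed at the times kept. B cell markers were lower for 10 at ZT0, 9 at ZT4 and 10 at ZT20, and 0 were higher. Neutrophil markers were higher for 5, 8 and 9 and lower for 0, 2 and 0 at these times. This count is therefore no test of cell composition.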

How the data were processed

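Lung RNA was sequenced in 42 libraries. Per the labels' protocols, TRIzol served for RNA extraction and a NEBNext Ultra kit for library construction. Per the submitters' processing notes, HISAT2 2.0.5, featureCounts 1.5.0-p3 and the mm10 build were used, with roles and strand setting not given in the sources used here. FPKM per gene are the values the authors deposited. Multiplied by gene length, they were whole multiples of a fixed step in 99.943% to 100% of values above 0 per library (within 0.1 read), which gave 25285525 to 29790252 reads per library. No read counts were tested: values entered limma 3.58.1 (R 4.3.3, trended variance) as log2(FPKM + 1), for 16962 genes with a mean of at least 0.5 FPKM, with 14 group means. Rhythms were cosine and sine terms of 24 h. Tests were two-sided with Benjamini-Hochberg adjustment over all genes in each comparison, called under 0.05. The fits were tested on simulated data holding planted differences and normal noise at the spread within groups. No further scatter between groups was simulated, so that test cannot speak to such scatter. The p-values measure only the spread between these libraries, which may be technical. Replicates of a group differed by more than sampling noise (chi-square per degree of freedom 1.95 to 21.7). The 33 genes, the gene lists and the tests were chosen with earlier results of these data known. All 33 were named. For the genes with the largest averaged rise and fall of each role, and those against their role's direction, library values are printed at selected times and otherwise as the lowest, median and highest. From the lists, the smallest-p gene in each direction is named, except 1 that is not reported here. Gene spans are those of the deposited table, sequences are from RefSeq GRCm38.p6, and overlaps and copies were checked against GENCODE annotation and transcripts. Alternatives were another pseudocount, no low-value filter, total-read scaling, array weights, a replicate block, each library left out, group means as units, without 4 times, without ZT24 and a one-way F.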

Additional observations from a re-analysis of the deposited data

Results flagged for a closer look

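The difference between SD and Ctrl itself varied between the 7 collection times for 32 of the 33 genes, by the limma interaction test, where 81.7% of all tested genes were called. The values that follow are the range of the 7 differences of a gene, highest minus lowest, on the log2(FPKM + 1) scale. The widest was that of the mevalonate enzyme Pmvk (2.01), followed by the LDL receptor ligase Mylip (1.55), the isomerase Idi1 (1.21), the exporter Abcg1 (1.04) and the anchor protein Insig1 (0.999). Among the other mevalonate enzymes it was 0.793 for Hmgcs1, 0.764 for Mvk, 0.749 for Fdps, 0.609 for Mvd and 0.408 for Acat2. Among the sterol enzymes it was 0.807 for Dhcr7, 0.757 for Sc5d, 0.682 for Lss, 0.673 for Msmo1, 0.576 for Nsdhl, 0.551 for Sqle, 0.514 for Cyp51, 0.509 for Fdft1, 0.446 for Tm7sf2, 0.432 for Hsd17b7 and 0.296 for Ebp. In SREBP control it was 0.621 for Srebf1, 0.444 for Insig2, 0.255 for Srebf2 and 0.2 for Scap. In the LXR axis it was 0.812 for Abca1, 0.712 for Nr1h3 and 0.514 for Nr1h2. In transport it was 0.793 for Stard4, 0.633 for Npc2, 0.599 for Soat1 and 0.471 for Npc1.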

How the results depend on the processing

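With group means as units, the called genes numbered 13 for the averaged difference, 1 for a rhythm in Ctrl, 0 for a rhythm in SD and 0 for a different rhythm, each set by fewer units. A one-way F called 32 in SD in place of 4 by the cosine. For ZT24 minus ZT0 in Ctrl (2 called), the number was 4 with array weights, 1 with scaling by total reads, 0 without a filter on low values and 0 from the 6 libraries alone; the cause was not tested. Scaling by total reads moved the averaged median of all genes to -0.0594 and called 28 genes, 10 higher and 18 lower, against 24.2% higher and 47.3% lower of all genes. The averaged difference changed sign for Lss (-0.0161) and Tm7sf2 (-0.0292) under that scaling and for Tm7sf2 without ZT8, ZT12, ZT16 and ZT24 (-0.0482). The averaged call was lost for Scap (0.01) and Abcg1 (0.02) with that scaling, for Ebp with array weights (-0.04) and for Srebf2 without those times (-0.02). At ZT20 that scaling moved the median of all genes from 0.0171 to -0.139.

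Leaving out each library gave 30 to 32 averaged calls, 23 to 25 at ZT0, 17 to 19 at ZT4, 23 to 25 at ZT8, 21 at ZT12, 22 to 24 at ZT16, 26 to 29 at ZT20 and 19 to 22 at ZT24. It gave 31 to 33 interaction calls, 16 to 23 rhythms in Ctrl, 4 to 6 in SD, 6 to 9 different rhythms, and 0 to 2 (Ctrl) and 12 to 16 (SD) calls for ZT24 minus ZT0. Without Ctrl ZT0 replicate 2, Ctrl ZT24 replicate 1 or Ctrl ZT24 replicate 3 the Ctrl number was 1.

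The replicate numbers did not pair the samples: 0 of 21 same-numbered pairs of groups correlated over 0.1 (-0.0489 to 0.0803). A replicate block gave 30 averaged calls, 26 at ZT8, 24 at ZT24 and 21 rhythms in Ctrl, and the same number as without it in the other comparisons. Depth limits Fdps most, at 55 to 200 reads per library.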
